A study of Mus musculus with 9 samples.

Results

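Accessible regions in gene deserts were defined as union regions that overlapped no protein-coding gene body and lay over 100 kb from the nearest protein-coding gene end. The union regions came from merging 9 lists of ATAC-seq peaks on chromosomes 1 to 19 and X of mm10, wherever peaks shared at least 1 base. Of 62963 union regions, 2965 (4.71%) met this rule. The other regions were 40372 that overlapped a gene body, 1421 intergenic ones under 1 kb from a gene end and 18205 intergenic ones 1 to 100 kb from a gene end. The last class, called nearer intergenic regions here, is the most alike and served for comparison.

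The cells were P14 CD8 T cells, whose transgenic T cell receptor is specific for the GP33-41 peptide of the lymphocytic choriomeningitis virus (LCMV) glycoprotein and, in these donors, a TCF-1-GFP reporter. Per the labels, 500000 naive GFP-positive P14 cells were transferred into C57BL/6 mice 8 days after these were given B16.F10 melanoma cells made to express the LCMV glycoprotein, and the hosts kept their own lymphocytes. CD45.1+ CD44+ CD8 T cells were sorted from tumor-draining lymph nodes on day 4, 8 or 21 after transfer, with 3 libraries per day of 50000 cells each. All groups share the wild-type genotype, the tumor and the transferred cells, and differ in the day alone, as far as the labels say. ATAC-seq uses the Tn5 transposase to insert sequencing adapters into open DNA, so a called peak marks a stretch where insertions were denser than in its surroundings.

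Long stretches without protein-coding genes often flank genes for transcription factors and other regulators. They can hold distal enhancers, which are DNA elements that bind transcription factors and act on a promoter far away through looping of the chromosome, and genes for long non-coding RNAs (lncRNAs). In T cells, well studied distal elements lie in the gene-poor stretches beside Gata3, Bcl11b and Myc. The nearest gene is a position label here, since an element can act on another gene than the nearest.

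The day 4 lists were much shorter than the others, which bears on every comparison with day 4. Peaks per list averaged 20534 ± 1496 on day 4, 48811 ± 1776 on day 8 and 48420 ± 2832 on day 21 (SD, n = 3 each). Read totals are not part of the lists. A stand-in for depth, the lowest local background found among a list's peaks, averaged 2.89 ± 0.424 tags for day 4 lists, 2.38 ± 0.246 for day 8 and 2.60 ± 0.414 for day 21 (SD), so the day 4 lists were not the shallower ones by this measure. Comparisons were therefore repeated at equal list length, with the 19499 strongest peaks of each list. The 3 lists of a day carried the same sample index in their names, and their summit pileups differed by less than sampling noise. Chi-square per region was 0.417 to 0.444 in the 9 same-day pairs and 0.965 to 1.19 in the 27 pairs of different days. It was computed over the 15109 union regions called in all 9 lists, of which 413 were desert regions. The same-day values lie below the sampling noise that the formula assumes, and those of different days lie near it. That level was not calibrated for summit pileups, and every pair of different days lay above every same-day pair. The values therefore do not show that days differ by noise alone. Calls in 3 of 3 lists of a day are therefore not 3 independent calls. Whether separate animals gave the 3 libraries of a day is not in the labels, so p-values measure the spread between these lists, which may be technical. With 3 against 3 lists the smallest two-sided p of an exact permutation test is 0.1, so no single comparison between days could pass 0.05.

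The desert regions that hold a promoter show what these stretches can contain. Of 32619 RefSeq promoter windows (GRCm38.p6, 250 bases before to 50 after a transcript start), 84 shared a base with a desert region and 33 lay wholly inside one, and all 84 belonged to lncRNA genes. The 5 windows below were chosen after their values were seen, because their regions are described further on. Each is written 5′ to 3′ on the strand of its gene, and capitals mark matches, on either strand, to TGANTCA (AP-1), TGTGGTT (RUNX), CGGAAG (ETS), TCAAAG (TCF-1 and LEF-1), CAGCTG (E-box) or GGGCGG (KLF and SP). They are Ifngas1 (chr10:118556476-118556775, minus strand), Morrbid (chr2:128429302-128429601, minus), Gm40948 (chr13:52083558-52083857, minus), Gm45805 (chr8:126758304-126758603, minus) and Dubr (chr16:50732724-50733023, minus).
Ifngas1: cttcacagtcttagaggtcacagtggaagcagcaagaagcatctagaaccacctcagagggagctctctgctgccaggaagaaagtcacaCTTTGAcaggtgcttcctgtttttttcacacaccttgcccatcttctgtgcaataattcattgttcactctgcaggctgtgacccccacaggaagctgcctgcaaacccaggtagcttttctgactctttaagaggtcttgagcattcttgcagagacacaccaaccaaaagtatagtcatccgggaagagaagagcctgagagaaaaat
Morrbid: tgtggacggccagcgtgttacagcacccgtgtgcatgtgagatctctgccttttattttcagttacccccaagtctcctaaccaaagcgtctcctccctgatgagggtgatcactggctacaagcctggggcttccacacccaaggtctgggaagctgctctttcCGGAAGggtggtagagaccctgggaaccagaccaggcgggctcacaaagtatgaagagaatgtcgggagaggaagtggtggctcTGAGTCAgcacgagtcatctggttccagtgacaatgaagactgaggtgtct
Gm40948: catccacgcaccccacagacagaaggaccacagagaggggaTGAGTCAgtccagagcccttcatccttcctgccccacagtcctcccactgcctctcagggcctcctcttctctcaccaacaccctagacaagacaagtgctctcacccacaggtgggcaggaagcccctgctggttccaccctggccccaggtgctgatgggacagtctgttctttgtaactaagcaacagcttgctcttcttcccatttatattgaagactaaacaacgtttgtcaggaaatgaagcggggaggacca
Gm45805: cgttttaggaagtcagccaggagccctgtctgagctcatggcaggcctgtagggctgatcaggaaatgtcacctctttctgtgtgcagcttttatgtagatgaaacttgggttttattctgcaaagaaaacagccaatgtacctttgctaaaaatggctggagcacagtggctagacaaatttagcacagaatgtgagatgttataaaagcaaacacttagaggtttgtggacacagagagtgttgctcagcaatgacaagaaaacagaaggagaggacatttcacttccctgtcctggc
Dubr: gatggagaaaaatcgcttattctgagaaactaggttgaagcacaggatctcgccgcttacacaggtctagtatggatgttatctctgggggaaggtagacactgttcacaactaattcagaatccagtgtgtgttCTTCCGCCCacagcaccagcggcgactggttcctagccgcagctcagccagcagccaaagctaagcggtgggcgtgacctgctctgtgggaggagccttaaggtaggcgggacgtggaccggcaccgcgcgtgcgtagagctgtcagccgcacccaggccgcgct
An AP-1 match stood in the windows of Morrbid and Gm40948, an ETS match in those of Morrbid and Dubr, and a TCF-1 and LEF-1 match in that of Ifngas1. In the Dubr window the ETS match overlaps a KLF and SP match. The Gm45805 window held none of the 6 motifs. Among the 84 windows that share a base with a desert region, 17.9% held an AP-1 match, against 7.85% of all promoter windows and 9.31% of the 11574 lncRNA windows. The RUNX motif was in 17.9% of the 84, against 5.29% of all and 6.30% of lncRNA windows, and the TCF-1 and LEF-1 motif in 23.8%, against 16.0% and 18.9%. The ETS motif was in 13.1% and the KLF and SP motif in 26.2% of the 84, against 17.0% and 35.9% of all windows but 9.00% and 16.3% of lncRNA windows. The E-box was in 16 of the 84, against 16.4% of all and 17.6% of lncRNA windows. The 84 windows belong to 74 genes, and overlapping windows of a gene can count the same match more than once. These are counts of letters in small sets, with no test, and a match is not a bound site.

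The regions behind these windows differed in when they were called. Ifngas1, an lncRNA beside the interferon gamma gene that acts on Ifng in mouse T cells, starts inside chr10:118556355-118556944, which lies 110 kb from Ifng and was called in all 9 lists. Its fold enrichment, the height of the summit over the local background of its own library as the authors' peak caller gave it, was 4.65, 4.65 and 6.51 in the day 4 lists, 10.2, 9.97 and 10.5 on day 8 and 9.69, 9.63 and 9.14 on day 21. Fold enrichments serve here to describe a peak within its own list, not to measure change between lists. Gm40948 starts in chr13:52083404-52084500, in the desert beside Gadd45g, and Dubr in chr16:50732051-50733174, between Ccdc54 and Cblb. Both regions were called in all 9 lists. By contrast, the starts of Morrbid (chr2:128428898-128429612) and Gm45805 (chr8:126757892-126758639) lay in regions without a call on day 4 that each of the 6 later lists called. Morrbid is an lncRNA that represses its neighbour Bcl2l11, the gene of the pro-apoptotic protein Bim, in mouse myeloid cells. The Gm45805 region had fold enrichments of 8.77, 9.17 and 8.52 on day 8 and 8.89, 9.22 and 10.8 on day 21.

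Desert regions were sparse and clustered. There were 3.94 of them per Mb of sequence over 100 kb from a protein-coding gene, between the first and last gene of each chromosome, against 22.8 nearer intergenic regions per Mb of their own class of sequence and 39.2 regions per Mb of gene bodies. The median distance to the nearest gene end was 179 kb (quartiles 133 and 282 kb), and the largest was 2138 kb. The median width was 411 bases (quartiles 287 and 613), close to the 404 bases of nearer intergenic regions. Although 1537 gaps between neighbouring genes exceed 200 kb, desert regions stood in 559 stretches, counting chromosome ends. The 172 gaps with at least 5 desert regions held 2248 (75.8%) of all, and the 10 richest held 470 (15.9%). Neighbouring desert regions of a gap lay a median of 11.8 kb apart (quartiles 3.70 and 31.5 kb). Of the 2965, 1018 (34.3%) overlapped a gene that is not protein-coding, 785 of them an lncRNA gene, against 23.4% of nearer intergenic regions. Chromosome 12, which carries the immunoglobulin heavy chain locus, held 316 desert regions, or 11.5% of its union regions, and chromosome 11 held 59.

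The 100 kb limit cut through a continuous range. Just inside it were chr4:98254852-98255356 at 100.013 kb from Tm2d1, chr5:64701804-64702340 at 100.029 kb from Gm38457 and chr1:165035626-165035990 at 100.103 kb from Xcl1. Just outside were regions at 99.987 kb from Ets2, 99.98 kb from Rplp1 and 99.972 kb from Tsen15. The 2 regions closest to the limit on either side were called in 1, 3 and 3 lists (Tm2d1) and in 0, 2 and 3 lists (Ets2) on days 4, 8 and 21. The 5 regions farthest from a gene were at 2138 kb (Cntnap5b), 1611 and 1599 kb (Adgrl3), 1411 kb (Cntnap5b) and 1326 kb (Zeb2). Those at 2138, 1611 and 1599 kb were called in 1 list each. The region at 1411 kb, chr1:101901792-101903111, was called in all 9, with fold enrichments of 6.34, 4.55 and 7.12 on day 4, 8.12, 8.99 and 9.52 on day 8 and 8.44, 9.92 and 9.17 on day 21.

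Few desert regions were called on day 4 and most on the later days. The day 4 lists called 572, 543 and 693 desert regions, the day 8 lists 1896, 1873 and 2083, and the day 21 lists 2006, 1939 and 2338. All 6 later lists lay above all 3 day 4 lists, whereas days 8 and 21 overlapped. The day 21 list of replicate 3 had the most. As a share of the regions called in a list, desert regions made up 3.10%, 3.02% and 3.35% on day 4, 4.16%, 4.06% and 4.25% on day 8 and 4.45%, 4.36% and 4.67% on day 21. The share was 1.00 percentage points greater on day 8 than on day 4 and 0.336 points greater on day 21 than on day 8 (exact permutation test, p = 0.1 for each, the smallest possible).

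The greater share on day 8 than on day 4 was not seen with lists of equal length, whereas that on day 21 over day 8 was. With the 19499 strongest peaks of each list the shares were 3.08%, 3.02% and 3.18% on day 4, 2.96%, 2.99% and 2.91% on day 8 and 3.47%, 3.46% and 3.57% on day 21. Day 8 then lay 0.138 points under day 4, and day 21 lay 0.542 points over day 8 and 0.404 over day 4 (p = 0.1 each, exact permutation test). Set against nearer intergenic regions, desert regions were again called more often on day 21 than on day 8. The log2 ratio of the share of desert regions called to the share of nearer intergenic regions called was −0.00, −0.03 and 0.03 in the day 21 lists and −0.11, −0.14 and −0.10 in the day 8 lists, without overlap. The difference was 0.12 (p = 0.1, exact permutation test), and 0.25 at equal list length. Day 8 against day 4 gave −0.07 (p = 0.1) and day 21 against day 4 gave 0.04 (p = 0.2, exact permutation tests). The day 21 against day 4 value changed sign, to −0.0768 with deserts defined by genes of any kind and −0.0190 with at least 50% of a region covered by a peak.

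**Figure D1:**
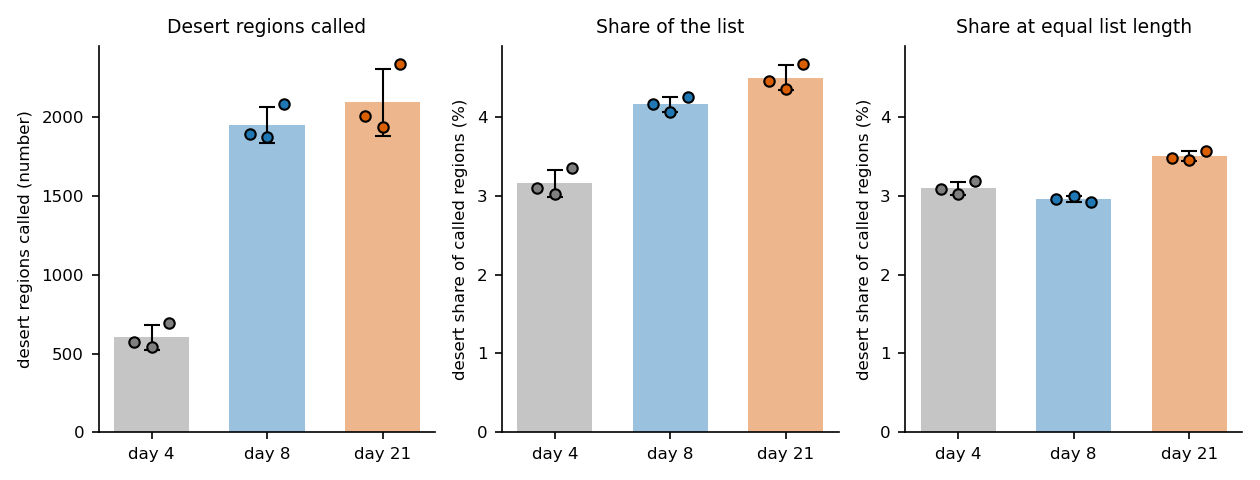
Desert regions by day. Left, number called in each list; middle, their share of all union regions called in the list (%); right, the same share (%) with the 19499 strongest peaks of each list. Points are the 3 lists of a day, bars their mean and whiskers the SD; at equal list length days 4 and 8 come close, at 2.91% to 3.18%, and the day 21 lists lie at 3.46% to 3.57%.

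The share of desert regions called in a list was close between distance classes. Every union region was called in some list by definition, so these shares do not show how the density of open sites changes with distance. Calls per Mb of sequence by distance were not computed. Of the 1734 regions 100 to 200 kb from a gene, 20.5 ± 2.84% were called on day 4, 66.3 ± 4.24% on day 8 and 70.9 ± 7.39% on day 21 (mean ± SD, 3 lists each). Of the 251 regions over 500 kb away, of which 107 lay in antigen receptor loci, the values were 19.4 ± 2.80%, 66.5 ± 2.87% and 69.3 ± 5.87%.

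Within a list, the median fold enrichments of desert and nearer intergenic peaks were close, and desert peaks were slightly wider. Their median fold enrichment was 4.90, 4.97 and 4.67 on day 4, 5.58, 5.73 and 5.44 on day 8 and 5.73, 5.83 and 5.40 on day 21. For nearer intergenic peaks it was 4.86, 4.89 and 4.57 on day 4, 5.67, 5.65 and 5.51 on day 8 and 5.61, 5.70 and 5.40 on day 21. The mean within-list difference of the log2 medians was 0.01 (range −0.02 to 0.03) and missed the threshold (exact sign-flip permutation test over 9 lists, two-sided, p = 0.117). Leaving out replicate 1 of day 8 gave 0.02 with p = 0.0469 in the same exact test. It passed 0.05 as well under 5 other settings, at 0.0255 to 0.0532, so that the sign was positive but the call depended on the setting. The median width of desert peaks exceeded that of nearer intergenic peaks in all 9 lists, by 12.2 bases on average (range 4 to 23, exact sign-flip test, p = 0.00391, the smallest it can give). At equal list length replicate 2 of day 21 went the other way, at −4.5 bases. The sign-flip tests of fold and width treat the 9 lists as independent. The lists share regions and those of a day may be technical replicates, so these p-values can be too small. For regions over 200 kb from a gene the excess was 3 bases (exact sign-flip test, p = 0.555).

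**Figure D2:**
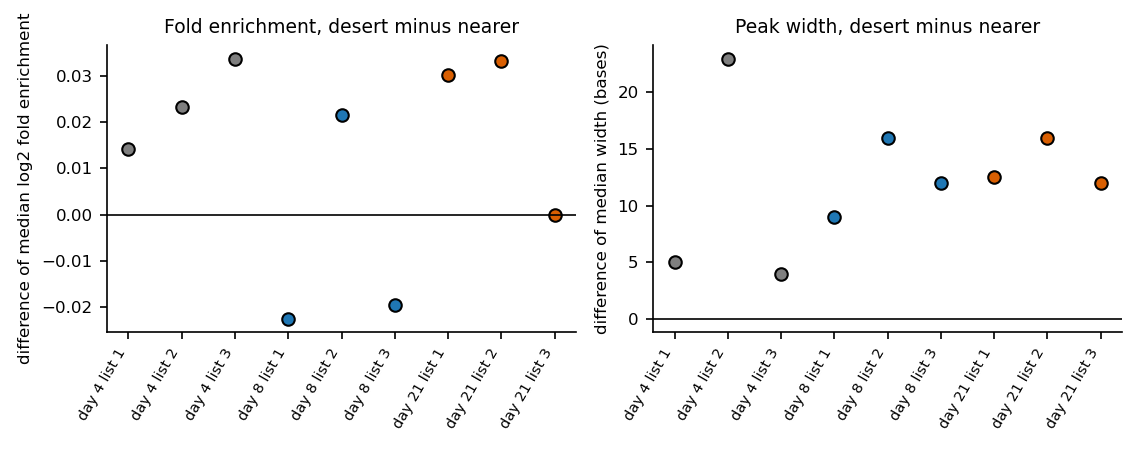
Desert peaks minus nearer intergenic peaks of the same list. Left, difference of the median log2 fold enrichment; right, difference of the median peak width in bases; each point is 1 of the 9 lists. The fold differences lie on both sides of 0, and the widths lie 4 to 23 bases above it.

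Days 8 and 21 shared many desert regions. Of the 2965, 413 (13.9%) were called in all 9 lists, as were 14.2% of nearer intergenic regions and 29.6% of regions in gene bodies. Another 616 (20.8%, beside 19.2% of all union regions) were called in all 6 lists of days 8 and 21 and in none of day 4. Calls in all 3 lists of day 21 alone numbered 55 (1.85%, beside 0.983% of all regions), and those in all 3 of day 8 alone 26 (0.877%, beside 1.08%). A further 590 (19.9%, beside 15.9%) were called in a single list, 193 of them in replicate 3 of day 21. The Jaccard index of the desert regions called, the shared regions over all regions of a pair of lists, averaged 0.685 between days 8 and 21, against 0.729 within day 8 and 0.736 within day 21. It was 0.653 within day 4, 0.298 between days 4 and 8 and 0.279 between days 4 and 21.

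Against day 4, 781 desert regions (26.3%) were gained on day 8, meaning a call in each of the 3 lists of day 8 and none on day 4. The background over all union regions was 25.7%. On day 21, 889 (30.0%) were gained against day 4, beside 25.3% of all regions. Only 2 desert regions were lost on day 8 and 1 on day 21, against a background of 0.00953% and 0.00794%. With lists of equal length, 36 of 1010 desert regions were gained and 49 lost on day 8 against day 4, where 3.17% and 1.44% of all regions were. For day 21 against day 4 the counts were 58 gained and 28 lost, beside 3.28% and 1.35%. Of the 49 lost ones, 43 were still called in all 3 full day 8 lists, at lower ranks. Of the 36 gained ones, 29 were in no full day 4 list.

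The 8 gained desert regions with the highest ranks in the day 8 lists lay in 8 different deserts. One, chr13:51969951-51970542, is 121 kb from Gadd45g, a stress sensor that activates p38 signalling, with fold enrichments of 10.9, 9.27 and 10.9 on day 8 and 9.09, 9.41 and 9.56 on day 21. Another, chr2:128345430-128345984, lies in Morrbid, 183 kb from Bcl2l11, with 9.84, 9.13 and 11.3 on day 8 and 8.88, 7.99 and 7.94 on day 21. A region at chr10:96398373-96398954 is 218 kb from Btg1, an inhibitor of proliferation that keeps T cells quiescent. That at chr12:25359757-25360487 lies in the lncRNA gene Gm36723, 264 kb from Id2, the inhibitor of E proteins that effector CD8 T cells use. The rule also named the Gm45805 region, 1 region in the immunoglobulin heavy chain locus (chr12:115119215-115120352), 1 at 180 kb from Zc3h12c, an RNA-degrading regulator of inflammation, and 1 on chromosome 18 at 102 kb from Pabpc2. In the 8 regions the fold enrichment was 5.74 to 11.7 in the day 8 lists, and each was also called in all 3 day 21 lists.

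Regions gained and regions lost at equal list length both included some beside listed T cell genes. The desert between Id2 and Rnf144a held 3 of the 36 gained on day 8 against day 4. Those beside Gadd45g, Btg1 and Bcl2l11, the immunoglobulin heavy chain and T cell receptor alpha loci and the stretch between Slco3a1 and Sv2b held 2 each. A gene of the T cell lists was nearest to 8 of the 36 gained and to 6 of the 49 lost regions. In the Bcl2l11 desert, chr2:128451350-128452072 was called in 1 of the 3 full day 4 lists, with a fold enrichment of 3.54. The folds within their own lists were 11.5, 10.5 and 10.7 on day 8 and 14.4, 12.7 and 10.0 on day 21. The 49 lost regions included 2 nearest to Myc, 2 to Dusp6 and 1 each to Cxcr4, a chemokine receptor, and Ets1. They also included 4 at the start of chromosome 16, before Olfr161, 2 at the start of chromosome 3, before Hnf4g, and 2 at 163 and 165 kb from Tcte2.

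Both desert regions that left the full lists were in unusual places. In chr3:3015093-3015332, at the start of the assembled chromosome and 493 kb from Hnf4g, the fold enrichment was 4.02, 4.49 and 3.96 on day 4, no list called it on day 8, and 2 day 21 lists called it at 3.97 and 3.37. The other, chr7:59767407-59767688, lies in Snhg14, the imprinted host gene of a cluster of small nucleolar RNAs. It was called on day 4 at 5.99, 5.52 and 5.25 and in no later list.

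The strongest desert regions called in all 9 lists were spread over 7 deserts. The first by rank, chr12:3109788-3110194, 137 kb from Rab10, had fold enrichments of 24.8, 26.5 and 25.3 on day 4, 31.6, 28.9 and 29.4 on day 8 and 29.7, 29.8 and 29.1 on day 21, with a summit pileup of 177 to 193 tags in every list. Regions at chr2:98666208-98667359 and chr2:98662204-98663002, over 1 Mb from Lrrc4c, held 355 to 369 and 270 to 305 tags, at folds of 4.54 to 6.07. A region at the start of chromosome 9, chr9:2999972-3001569, held 191 to 233 tags. Before Alkbh8, the first gene there, lay 17 desert regions, of which 13, 14 and 13 were called on day 4, 13 in each list on day 8 and 12, 14 and 15 on day 21. This differs from the deserts below, where day 4 had few calls. Mouse chromosomes begin at the centromere, so such starts border on repeated sequence. The treatment of reads that match several places is, like other alignment settings, not given in the sources used here. Repeat content was not analysed, at chromosome starts or elsewhere. Whether any of the 8 strongest regions, or the others before Alkbh8, mark open DNA or piled-up reads from repeated sequence was therefore not tested. The rank of the 8 is a rank of called peaks only. Another 4 of the 8 strongest were at 392 kb from Nbea, at 282 kb from Pex2, at 187 kb from 9530057J20Rik and at 148 kb from Fbxw7, which encodes the subunit of a ubiquitin ligase that marks Myc for degradation. The Fbxw7 region, chr3:85126838-85127530, had 65, 62 and 74 tags on day 4, 94, 111 and 114 on day 8 and 108, 120 and 129 on day 21.

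The 2 richest deserts held antigen receptor genes, and the next ones bordered genes of several kinds. The stretch between Adam6a and Zfp386 on chromosome 12, which spans the variable segments of the immunoglobulin heavy chain locus, held 110 regions. They were called 22, 21 and 30 times on day 4, 78, 79 and 91 times on day 8 and 73, 80 and 91 times on day 21. The stretch of the T cell receptor alpha locus, between Gm36448 and Dad1, held 72, with 2, 5 and 3 called on day 4, 50, 51 and 57 on day 8 and 39, 35 and 49 on day 21. Such segments are not annotated as protein-coding genes, which is why these loci count as deserts, and 201 desert regions lay in 6 gaps of this kind. Of these 201, 72 (35.8%) were gained on day 8 against day 4, beside 25.7% of all union regions. Beside the immunoglobulin regions, the loci of 7 B cell markers (such as Cd79a and Pax5) held 19 union regions, of which 3 were called in each day 4 list and 13 to 17 in each later one. No list had a peak at the defining marker Ms4a1, and Cd79a, Cd79b and Ebf1 had none on day 4. All of the 7 but Ms4a1 had a call on days 8 and 21. The loci of 7 T cell markers, among them Cd3e, Cd8a and Lck, each held a called region on every day, with 15 to 23 of 68 regions called on day 4 and 48 to 56 later. The list had 9 T cell markers, but Trac and Trbc2 were not matched to a gene. Loci of 10 stromal and endothelial markers had 3 to 5 of 43 regions called on day 4, 27 to 30 on day 8 and 25 to 30 on day 21, with no call at Tek. All of the 10 but Tek had a call on days 8 and 21. For 8 myeloid markers the counts were 4 or 5 of 25, 14 to 19 and 18 to 21, with no call at Lyz2. For 7 melanocyte markers they were 4 to 6 of 13, 8 or 9 and 10 to 12, with none at Tyr, Tyrp1 or Sox10. The other myeloid and melanocyte markers all had a call on day 21. The part of other cells in these results was not tested.

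Id2 borders the richest desert outside the antigen receptor loci. The 1211 kb between Id2 and Rnf144a held 48 desert regions, of which 8, 8 and 12 were called on day 4, 33, 36 and 39 on day 8 and 34, 33 and 40 on day 21. In the 1786 kb between Myc, the driver of T cell growth, and Gsdmc, 44 regions were called 6, 7 and 8 times on day 4, 30, 33 and 31 times on day 8 and 29, 31 and 33 times on day 21. Of those, 15 lay in the lncRNA gene Pvt1. Every day 8 and day 21 list of both deserts lay above the day 4 lists, and days 8 and 21 overlapped. Sall3 to Galr1 on chromosome 18 held 37, with 7 to 9 called on day 4, 23 to 27 on day 8 and 25 or 26 on day 21. Foxo1, a transcription factor that maintains naive and memory T cells, is followed by 36 regions before Cog6, with 10, 7 and 10, then 29, 26 and 28, then 25, 24 and 28 calls. The desert beside Gadd45g had 31 regions, with 2, 2 and 3 called on day 4, 21, 19 and 22 on day 8 and 17, 19 and 23 on day 21.

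With lists of equal length the later days still stood apart from day 4 in some deserts, in both directions. Between Id2 and Rnf144a, 8 regions were called in each day 4 list, 15, 10 and 11 on day 8 and 13, 10 and 15 on day 21, so that both later days lay above day 4. Beside Gadd45g the counts were 2 in each day 4 list, 7, 6 and 5 on day 8 and 5, 6 and 7 on day 21. Beside Myc they overlapped, with 6, 7 and 8 on day 4, 6, 8 and 9 on day 8 and 9, 9 and 7 on day 21. Over the 172 gaps with at least 5 desert regions, 155 (90.1%) had more regions called in every day 8 list than in any day 4 list and none fewer (0%), and 161 (93.6%) had more on day 21 than on day 4, with none fewer (0%). At equal list length 16 gaps were higher and 16 lower on day 8 (9.3% each), and 31 (18%) were higher and 8 (4.65%) lower on day 21, both against day 4. Those lower on day 8 included Celf2 to Gata3, with 6, 5 and 6 calls on day 4 and 3, 4 and 3 on day 8. In Dusp6 to Csl, also lower, the calls were 8, 7 and 7 on day 4 and 4, 5 and 5 on day 8. Chromosome starts were among the lower gaps too, with steeper falls. Before Olfr161 the calls were 7, 5 and 6 on day 4 and 1 in each day 8 list. Before Hnf4g they were 4, 5 and 5 on day 4 and 1, 0 and 0 on day 8. Both starts were lower on day 21 as well, at 2, 1 and 2 before Olfr161 and 1, 0 and 0 before Hnf4g.

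**Figure D3:**
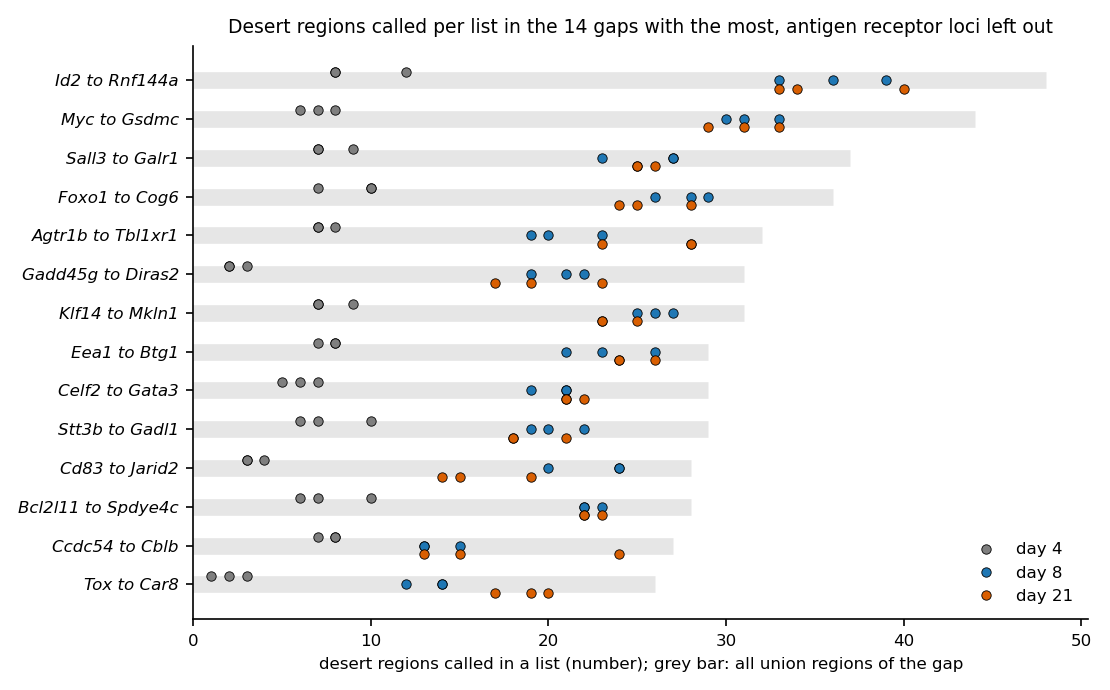
Desert regions called in each list (number, horizontal axis) in the 14 gaps between protein-coding genes with the most desert regions, without those holding antigen receptor segments. Points are lists, coloured by day, and the grey bar spans all union regions of the gap. Day 4 points lie left of the others in each gap, and the day 21 points lie left of the day 8 points between Cd83 and Jarid2 and right of them between Tox and Car8.

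Other deserts were smaller and denser. In the 440 kb between Klf14 and Mkln1, which hold the p53-responsive lncRNA gene Lncpint, 31 regions were called 9, 7 and 7 times on day 4, 25, 26 and 27 times on day 8 and 23, 23 and 25 times on day 21. At 129 regions per Mb of desert sequence this was one of the densest. Denser still were the T cell receptor beta stretch before Try4 (150 per Mb), the stretch between Haao and Zfp36l2 (141 per Mb) and that between Ccnd2, the gene of cyclin D2, and Parp11 (137 per Mb). Ptprn2 to Rapgef5 followed with 130 per Mb from 5 regions. The desert before Zfp36l2, which encodes an RNA-binding protein that speeds mRNA decay, had 19 regions with 3, 3 and 7 calls on day 4, 18, 16 and 16 on day 8 and 13, 15 and 17 on day 21. Between Bcl2l11 and Spdye4c, 28 regions were called 7, 6 and 10 times on day 4, 22, 22 and 23 times on day 8 and 22, 22 and 23 times on day 21.

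**Figure D4:**
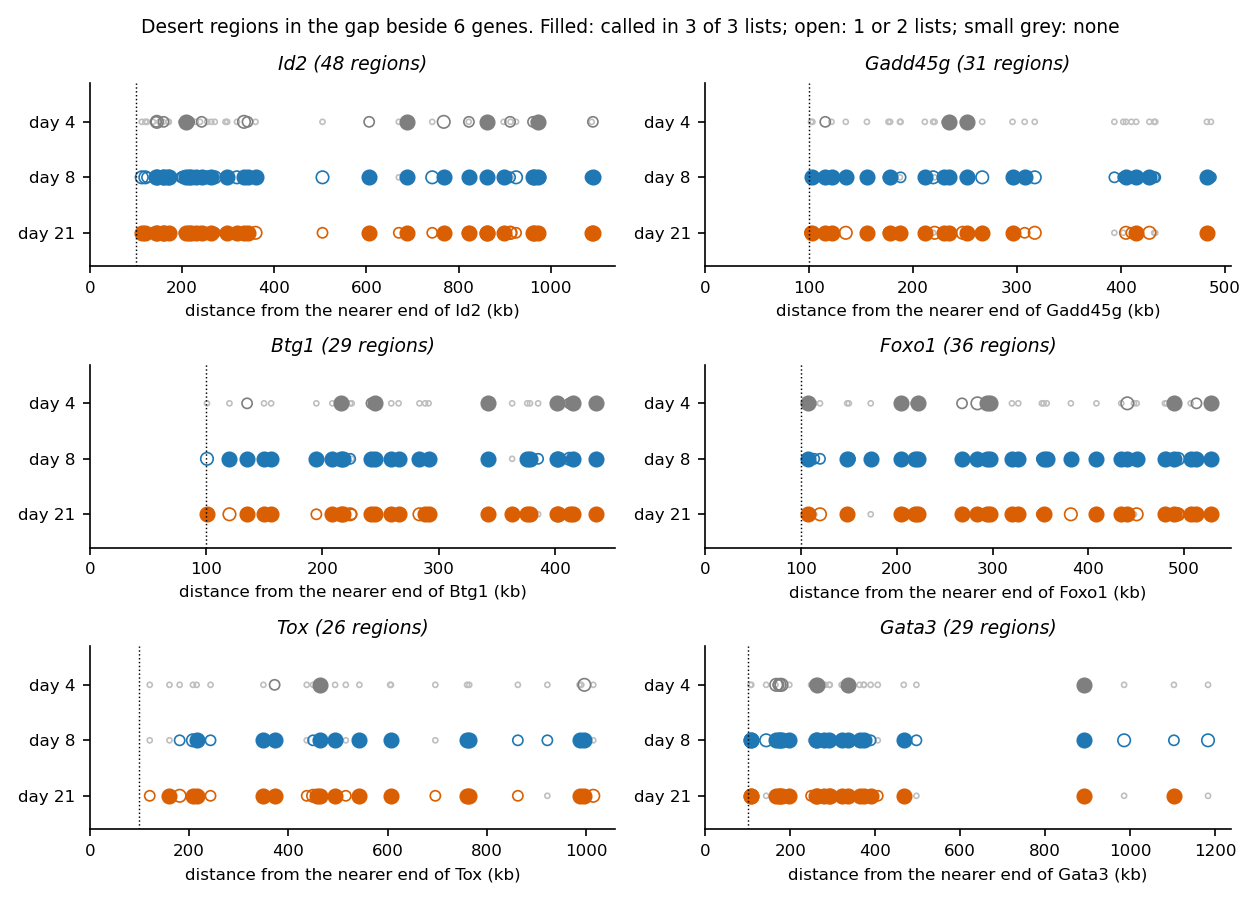
Desert regions in the richer gap beside each of 6 genes, by their distance from the nearer end of the gene (kb), with 1 row per day. Filled circles were called in all 3 lists of the day, open circles in 1 or 2 and small grey circles in none, and the dotted line marks 100 kb. Beside Id2, 4 of 48 regions were called in all 3 lists on day 4, 26 on day 8 and 29 on day 21; in the gap between Tox and Car8 the counts were 1, 11 and 14 of 26.

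Transcription factors of T cells were often the nearest genes of desert regions. This is a description with no test, since the list was chosen with earlier results known. Of its 67 genes, 24 were the nearest gene of 294 desert regions (9.92% of all), whereas 337 nearer intergenic regions (1.85%) had a gene of the list nearest. The 294 were called 60, 57 and 66 times on day 4, 198, 199 and 213 times on day 8 and 211, 207 and 233 times on day 21. Of the 294, 81 (27.6%) were gained on day 8 against day 4, close to the 25.7% of all union regions. Among the 80 T cell surface, cytokine and signalling genes, 18 were nearest to 132 desert regions (4.45%), against 2.49% of nearer intergenic regions. The B lineage list had 2 desert regions, the stromal and endothelial list 4 and the melanocyte list 4, whereas the myeloid list had 31 (1.05% of desert regions, against 0.137% of nearer intergenic ones), 29 of them at Id2, which it shares with the T cell list. A greater share among desert than among nearer intergenic regions was also found for lists outside the T cell. Developmental factors had 47 (1.59%, against 0.379%), and adhesion and synaptic genes had 42 (1.42%, against 0.0989%).

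Myc had the most of any listed gene, with 45 regions on its 2 sides, followed by Gata3 and Id2 with 29 each. Gata3 encodes a zinc-finger factor that T cells need throughout development. Its 29 regions, up to 1183 kb away, were called 6, 5 and 7 times on day 4, 19, 21 and 21 times on day 8 and 21, 21 and 22 times on day 21. Next came Adgrl2, an adhesion receptor (24), Sall3 (22), Btg1 (19), the ETS factor Ets1 (19), the chromatin organiser Satb1 (18), Bcl11b, which fixes T cell identity (17), Foxo1 (16), the AP-1 subunit Jun (15) and Sox4 (15). Bcl11b regions were called 4, 2 and 3 times on day 4, 15, 13 and 15 times on day 8 and 16, 13 and 14 times on day 21. Those of Ets1 were called 6, 7 and 8 times on day 4, then 13, 14 and 14 on day 8 and 16, 16 and 15 on day 21. For Ets1 the day 21 lists lay above the day 8 lists, whereas they overlapped for Bcl11b and shared the value 21 for Gata3.

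Days 8 and 21, whose lists were of like length, differed in few desert regions, more of them gained. On day 21, 56 (1.89%) were gained and 28 (0.944%) lost against day 8. Over all union regions the background was 1.02% gained and 1.09% lost, and among nearer intergenic regions 216 (1.19%) were gained and 239 (1.31%) lost. With equal lengths 40 of 1010 desert regions were gained and 4 lost, beside 1.48% and 1.24% of all regions. All 40 were also in all 3 full day 8 lists, so the difference there was one of rank. The counts depended on single lists, since leaving one out relaxes the rule. Gains numbered 85 without replicate 2 of day 8, 94 without replicate 3 of day 8, 99 without replicate 1 of day 21 and 114 without replicate 2 of day 21. Losses numbered 50 and 58 without replicates 1 and 2 of day 8. Without replicate 3 of day 21, the longest list, there were 78 gains and 68 losses.

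**Figure D5:**
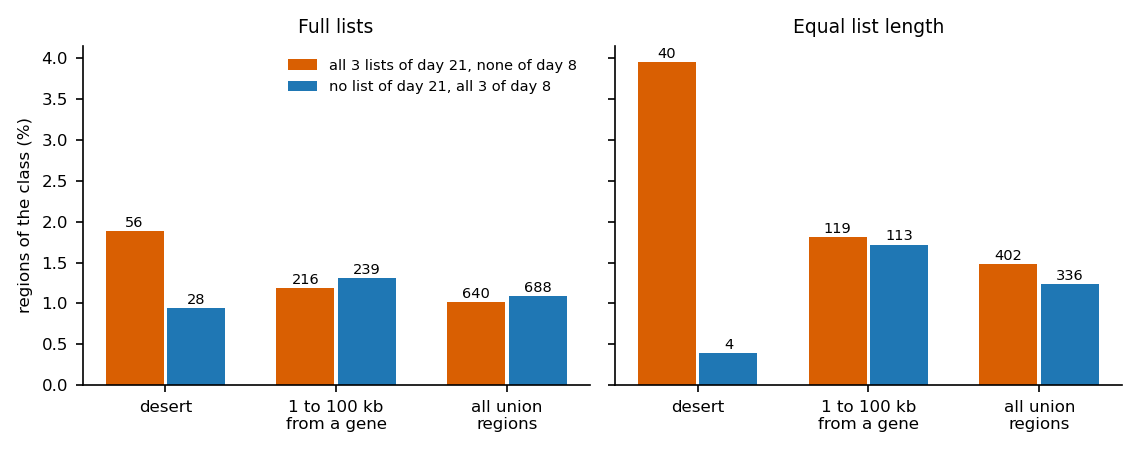
Share of regions (%) gained on day 21 against day 8 (3 of 3 calls on day 21 and 0 of 3 on day 8) and lost (the reverse), for desert, nearer intergenic (1 to 100 kb) and all union regions, with full lists (left) and equal list length (right). Numbers above the bars are regions. Desert gains stand at 1.89% and 3.96%, above losses at 0.944% and 0.396%.

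The regions behind these counts were weak ones. Gained regions had a median summit pileup of 17 tags (range 11 to 37) and lay in 49 gaps, and lost ones had a median of 16 tags (10 to 31) in 25 gaps. The median rank percentile within the list was 22.8 for gained and 17.7 for lost ones, where 100 is the strongest peak. The gained region with the highest rank, chr1:141926878-141927288, is 1313 kb from Kcnt2 in the desert before Cdc73, with fold enrichments of 7.08, 5.70 and 7.36 on day 21. The next were chr16:70006879-70007398 (143 kb from Speer2), chr6:103033965-103034287 (469 kb from Cntn3), chr15:5740497-5740985 (496 kb from Ptger4, a prostaglandin receptor) and chr12:92740902-92741173 (143 kb from Gm40892), with folds of 4.91 to 6.83. Of those lost, the one ranked highest was chr13:44305188-44305571, 425 kb from Jarid2, with 6.70, 5.65 and 5.24 on day 8. The others were at 139 kb from Rap1b (called in 1 day 4 list too), at 499 kb from Dad1 in the T cell receptor alpha locus, at 167 kb from Eif4g2 and at 104 kb from Sesn3. Beyond the rule, and chosen after their values were seen, gained regions included 2 near Tox (160 and 457 kb) and lost ones 1 near Fasl (127 kb), the gene of a death ligand of cytotoxic cells.

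By whole deserts, 24 of the 172 gaps (14%) had more regions called in every day 21 list than in any day 8 list, and 5 (2.91%) had fewer. Tox, a factor that T cells under chronic stimulation express, borders the richest of the 24. Of its 26 desert regions before Car8, 19, 17 and 20 were called on day 21 and 14, 14 and 12 on day 8. In the desert of Dusp6, a phosphatase that switches off ERK, 13, 14 and 16 of 18 were called on day 21 and 10, 10 and 11 on day 8. Beside Jun and before Fggy the calls were 12, 13 and 17 of 17 on day 21 and 10, 9 and 10 on day 8. Between Ifng and Dyrk2 they were 14 of 16 in each day 21 list and 9, 11 and 13 on day 8. Between Zeb2, a repressor that effector CD8 T cells use, and Acvr2a, 12, 11 and 13 of 14 were called on day 21 and 8, 10 and 10 on day 8. Of those 14, 12 were nearest to Acvr2a. The 2 nearest to Zeb2, at 1253 and 1326 kb, were called 2, 1 and 2 times on both days. These gaps are a choice among the 24, and others stood apart as well. Prickle1 to Adamts20 had 12, 13 and 12 of 14 called on day 21 and 9, 7 and 8 on day 8. Bckdhb to Tent5a had 12, 10 and 12 of 15, against 7, 7 and 9 on day 8. Sel1l to Gm40892 had 10, 9 and 8 of 10, against 6, 5 and 6. The chromosome start before Hnf4g had 8, 6 and 5 of 12, against 4, 2 and 4. The fewer-called gaps were led by the T cell receptor alpha locus, with 39, 35 and 49 calls on day 21 and 50, 51 and 57 on day 8. Between Cd83 and Jarid2, which encodes a partner of a Polycomb complex, the calls were 15, 14 and 19 of 28 on day 21 and 24, 20 and 24 on day 8. Smaller differences stood at Nmbr to Cited2, Opa1 to Hes1 and Spring1 to Med13l.

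At equal list length 20 gaps (11.6%) were higher on day 21 and 1 (0.581%) was lower, and 8 gaps were higher at both lengths. Zeb2 to Acvr2a was among the 8, with 4, 3 and 3 calls on day 4, 3 in each day 8 list and 6, 6 and 5 on day 21. Ets1 to Kirrel3 was another, with 6, 7 and 7 on day 4, 4, 4 and 5 on day 8 and 6, 6 and 8 on day 21. There day 21 overlapped day 4, and day 8 lay below both. The rest of the 8 were Trib2 to Lpin1, Bckdhb to Tent5a, Sel1l to Gm40892, 4930544G11Rik to Mad2l1, Kcnt2 to Cdc73 and Gm40892 to Flrt2. The deserts of Tox, Dusp6, Jun and Ifng were not among the 8. Tox had 5, 3 and 5 calls on day 21 and 2, 3 and 4 on day 8, and Dusp6 had 6, 4 and 5 on day 21 and 4, 5 and 5 on day 8. Jun had 4, 3 and 5 on day 21 and 2, 2 and 4 on day 8, and Ifng had 6, 7 and 5 on day 21 and 5 in each day 8 list, so that the days overlapped in all 4. Gata3 entered only at equal length, with 6, 7 and 7 on day 21 and 3, 4 and 3 on day 8. Its day 4 counts were 6, 5 and 6, so here too day 21 overlapped day 4 and day 8 lay below both. Outside the listed genes, chr9:11513676-11514348, at 609 kb from Cntn5, held the highest rank of the 40 regions gained at equal length, with fold enrichments of 11.2, 12.1 and 12.3 on day 21 and 7.02, 5.35 and 5.79 on day 8. With full lists, the number of gaps higher on day 21 was 40 without replicate 2 of day 21 and 39 without replicate 3 of day 8. The number lower was 8 without replicate 1 and 18 without replicate 3 of day 21, and 13 without replicate 1 of day 8.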

How the data were processed

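ATAC-seq peak lists of 9 libraries, 3 per day, were analysed. Groups and replicate numbers came from the sample titles, since the genotype tag holds the day and the time point tag the genotype. Per the submitters' processing notes, the tools were MACS2, deepTools 2.0, BWA 0.7.15 and Picard, with the genome build mm10. Their roles and settings were not given in the sources used here. Each deposited list, 1 per library, holds, as the authors' peak caller wrote them, where a peak lies, its score, its enrichment as a ratio (fold) over local background, and −log10 p and −log10 q. The lists held 353507 peaks, and 353295 on chromosomes 1 to 19 and X were kept. All had a q of 0.05 or less.

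A list called a region where any of its peaks overlapped it by 1 base or more. Gained means 3 of 3 calls on the later day with 0 of 3 on the earlier one, and lost the reverse. Genes were the 21631 protein-coding and 27923 other genes of a RefSeq table (GRCm38.p6, the assembly of mm10), and distances are to the nearer gene end. Coordinates are 1-based. A peak's fold and −log10 p fix its summit pileup under the Poisson formula of MACS2. The right pileup came out for 100% of 4961 simulated peaks. These were made with the same formula, so they check the arithmetic only. In every deposited list whole pileups came out for 100% of peaks, with a tolerance of 0.001 in −log10 p. Comparisons between days used exact permutation tests over 20 arrangements of 3 against 3 lists, and those within lists exact sign-flip tests over 512 patterns. The latter treat the lists as independent, although they share regions. Depth is unknown, as the lists give no read totals.

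The members, gene lists and motifs were chosen with earlier results of these data known. Named regions are, by rank of −log10 p within the lists, the 8 strongest called in all 9 lists, the 8 strongest gained on day 8, up to 5 gained and 5 lost on day 21 against day 8, those lost after day 4, the 5 farthest, the 3 on either side of the limit, the 5 richest and 5 densest gaps, and up to 12 listed genes. Base composition, repeat content and motifs of the regions themselves need the genome sequence and are not analysed here. One B cell marker is not reported here. Software was scipy 1.17.1, numpy 2.4.6, matplotlib 3.10.9, pandas 2.3.3 and Python 3.11.15.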

Additional observations from a re-analysis of the deposited data

Results flagged for a closer look

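Peaks outside the chromosomes used here were listed in every library. Chromosome Y held 194 peaks over the 9 lists, and the mitochondrial genome held 18. Both were picked up because they lie outside the regions compared.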

How the results depend on the processing

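Alternatives were equal list length, a q of 0.001 or less, a limit of 200 kb, genes of any kind, cover of at least 50% of a region, and each list left out. Leaving out antigen receptor loci, and all alternatives for gaps, were added after the data were seen. At equal list length the desert share on day 8 minus day 4 turned to −0.138 points. Gained and lost counts there were 36 and 49 (day 8 against day 4), 58 and 28 (day 21 against day 4), and 4 lost on day 21 against day 8. Gaps higher and lower were 16 and 16 on day 8, 31 and 8 on day 21, both against day 4, and 1 was lower on day 21 against day 8. The desert to nearer log2 ratio on day 21 minus day 4 turned to −0.0768 with genes of any kind and −0.0190 with 50% cover. The fold difference became 0.0385 (p = 0.00781) at equal length, 0.0255 (p = 0.0469) at the stricter q, 0.0362 (p = 0.0156) over 200 kb, 0.0532 (p = 0.0234) with genes of any kind and 0.0306 (p = 0.0312) with 50% cover by exact sign-flip tests. The width difference over 200 kb was 3 bases. Smaller sets gave fewer calls: 333 and 376 gained against day 4 on days 8 and 21, and 28 gained and 11 lost on day 21 against day 8, of 1231 regions over 200 kb. With genes of any kind, 207 regions gave 46 gained and 1 lost on day 8, 66 gained and 0 lost on day 21, both against day 4, and 11 gained and 0 lost on day 21 against day 8.

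With 1 list left out, day 21 against day 8 gave 56 to 114 gained and 28 to 68 lost, day 21 against day 4 gave 1 to 3 lost (3 without replicate 3 of day 21, 2 without its replicate 1 or replicate 2 of day 4), and the fold difference was 0.00976 to 0.0171. Gaps higher and lower on day 21 against day 8 numbered 25 to 40 and 5 to 18, and 0 to 1 were lower on day 8 against day 4 (1 without replicate 1 of day 4). The cause of these shifts was not tested beyond the smaller sets. For shares, numbers and ratios the replicate block kept every value and changed no call. Its exact permutation test gave p = 0.25, the smallest it allows, for the share on day 21 minus day 8 (0.336 points). The numbers do not pair the lists, as deviations of same-numbered lists correlated at −0.000729 to 0.0425 and others at −0.0341 to 0.0260.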
